A study of Mus musculus with 12 samples.

Results

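The gasdermin genes with pejvakin were followed along the mouse cochlea, from the apical turn over the middle turn to the basal turn. The members are the 5 genes Dfnb59, Dfna5, Gsdma, Gsdmc and Gsdmd, chosen as all array probes whose gene name equals 1 of these names. They make up 5 of 19505 genes measured and are covered by 43 probes of 60 bases. In current RefSeq naming Dfnb59 is Pjvk (pejvakin) and Dfna5 is Gsdme (gasdermin E), and the names of the array design are kept here. All samples came from male C57BL/6 mice aged 6 weeks without any genetic change or treatment. The cochlea was taken out of its bony capsule with its lateral wall, organ of Corti and spiral ganglion neurons, cut into the 3 turns, and 25 ng of total RNA per sample was labeled and hybridized to an exon microarray with probes in separate exons of each gene. There were 4 arrays for each turn. Only 4 mice were used, so the turns share animals, and the labels do not say which samples came from 1 mouse. The 4 arrays of a turn may have lain on 1 slide, and then turn and slide cannot be told apart in any comparison below.

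Gasdermins are proteins with an N-terminal domain that can punch pores into membranes and a C-terminal domain that holds it in check. Proteases cut the linker between them, and the freed N-terminal part opens the plasma membrane, which lets cytokines out and can end in lytic cell death (pyroptosis). Gasdermin D is cut by the inflammatory caspases, while gasdermins A and C are best known from skin and other epithelia. Pejvakin is the most divergent relative. It is known from hair cells and auditory neurons, where it has been tied to peroxisomes. Human DFNB59 mutations cause recessive deafness, and human DFNA5 mutations cause dominant progressive hearing loss.

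Signals below are fluorescence values in arbitrary units after each array was scaled to the same 75th percentile, and the value of a gene is the average of its probes on the log2 scale. Between 77.4% and 81.4% of the spots on an array were well above background, and the median SD of a gene within a turn was between 0.106 and 0.126 log2 units. The signal of a probe depends on its own sequence, so levels are compared between turns and never between genes or probes. Scaling to the spike-in probes instead lowered every difference between apex and base by the same 0.49 log2 units, so any gene or probe described below with a smaller excess at the apex changed sign under it. Differences were tested with limma over all 12 arrays, and adjusted p is Benjamini-Hochberg adjusted over all genes, or over all probes where single probes are tested.

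Of the 5 members, 2 were higher at the apex than at the base at an adjusted p under 0.05 (Dfnb59, and Dfna5 with the opposite sign under spike-in scaling), and none was higher at the base. Over all genes, 17.6% were higher at the apex and 21.6% were higher at the base by the same rule. Between the middle turn and the base the same 2 members were higher in the middle turn, against 11.7% of all genes, and none was higher at the base, against 9.21% of all genes. Between the apex and the middle turn none of the members passed in limma, and 1 (Gsdmc) had an unadjusted p under 0.05. An unmoderated t test of the same comparison, with the spread taken over the 3 turns, also called none. In that comparison 4.42% of all genes were higher at the apex and 7.59% were higher in the middle turn. By the stricter rule of the study, a difference among the turns of 2-fold or more that also passes the test over the 3 turns, 1 member was called (Dfnb59), against 4.69% of all genes. The 5 members had a median difference between apex and base of -0.05 log2 units, and the median over all genes was -0.04. With other scalings some members passed as higher at the base than at the apex. These were Gsdma with quantile, median and spike-in scaling, and Gsdmc and Gsdmd with spike-in scaling.

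**Figure D1:**
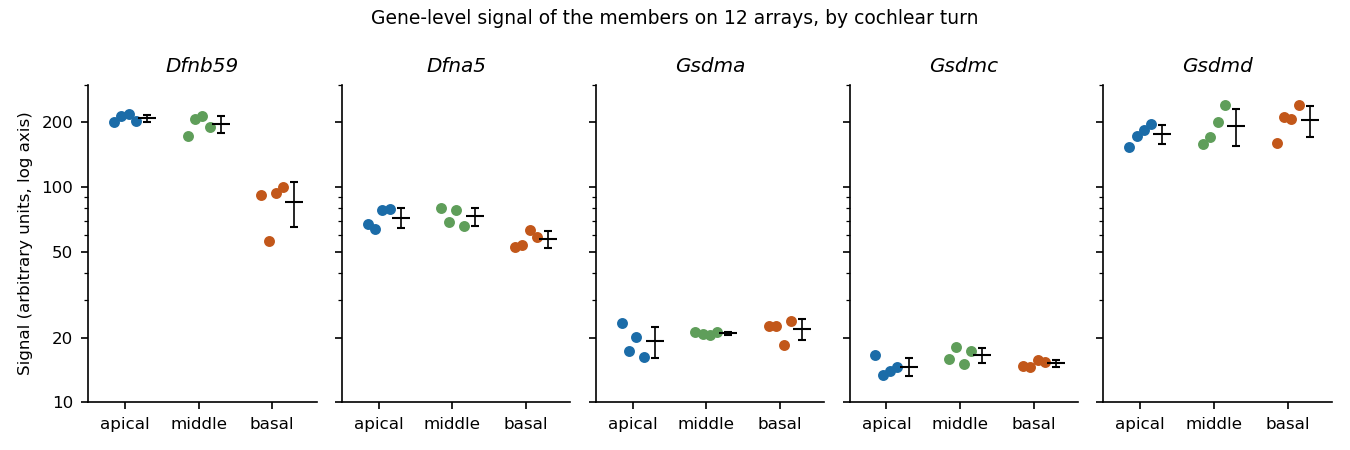
Signal of each member on each of the 12 arrays (points, arbitrary units, log axis), by cochlear turn, with the mean and SD of the 4 arrays of a turn in black. Dfnb59 dropped from between 172.4 and 218 on the apical and middle arrays to between 56 and 100.1 on the basal arrays, Dfna5 read 64.23 to 80.34 on apical and middle arrays but 52.67 to 63.57 at the base, and the turns overlapped for Gsdma, Gsdmc and Gsdmd.

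Dfnb59, the pejvakin gene, showed the largest difference between turns among the members, a drop at the base. Its signal was 201.5, 213.6, 218 and 202.8 on the apical arrays, 172.4, 206.8, 213.7 and 191.4 on the middle arrays, and 92.29, 56, 94.29 and 100.1 on the basal arrays. The apical and middle arrays overlapped, every basal array lay below all of them, and basal replicate 2 was the lowest. The order of the turn means was apex (209 ± 8.11, SD, n = 4), middle (196.1 ± 18.3) and base (85.68 ± 20.1). The apex was 2.50-fold above the base (log2 difference 1.32, SE 0.157, limma adjusted p = 9.24e-05), and the middle turn was 2.34-fold above it (log2 difference 1.23, SE 0.157, adjusted p = 0.000537). Apex and middle turn differed by 1.07-fold, less than the spread between arrays (adjusted p = 0.715). Of all genes, 1.81% had a larger increase from base to apex than Dfnb59. Without basal replicate 2 the folds over the base were 2.19 for the apex and 2.05 for the middle turn. After background correction with normexp, or after scaling to the spike-in probes, Dfnb59 kept its direction and passed the test but no longer reached 2-fold.

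The 6 Dfnb59 probes span chr2:76488627-76496613 (mm9, plus strand), and they are numbered here from the 5′ to the 3′ end of the transcript. Of these, 5 were higher at the apex than at the base, by log2 differences between 1.49 and 1.75, and higher in the middle turn than at the base. Probe 3 did neither. The 3 probes in the middle of the transcript are shown because the disagreement lies between them, with G and C in capitals:
Dfnb59 probe 2, chr2:76489590-76489649: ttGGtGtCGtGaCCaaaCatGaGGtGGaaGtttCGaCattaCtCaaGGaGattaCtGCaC
Dfnb59 probe 3, chr2:76490330-76490389: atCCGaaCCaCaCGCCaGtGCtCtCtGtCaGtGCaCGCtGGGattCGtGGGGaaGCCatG
Dfnb59 probe 4, chr2:76493920-76493979: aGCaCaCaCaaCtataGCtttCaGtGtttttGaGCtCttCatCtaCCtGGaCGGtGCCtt
Probe 3 holds 36 G or C among its 60 bases, and the other 5 Dfnb59 probes hold between 23 and 27. Of all probes on the array, 7.9% hold 36 or more. The longest run of bases that probe 3 shares with any other probe of the array, on either strand, is 15 bases, with a probe of Tceal6. Whether base composition or a transcript form has a part in its behaviour was not tested.

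Probe 2 read 148.3, 147.7, 157 and 123.8 on the apical arrays, 122.8, 124.1, 129 and 129.5 on the middle arrays and 45.05, 28.67, 41.54 and 62.01 on the basal arrays. All basal values lay below all others, a 3.36-fold difference between apex and base (limma adjusted p = 7.35e-05). Probe 4 read 200, 228.9, 257.3 and 254.5 at the apex, 200.7, 209.1, 276 and 213 at the middle turn and 83.86, 52.94, 80.45 and 83.15 at the base. It separated the base in the same way, with a 3.17-fold difference between apex and base (adjusted p = 4.35e-05).

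Probe 3 read 291.1, 291.9, 298.1 and 301.2 at the apex, 210.3, 318.7, 319 and 360.9 at the middle turn, and 287.9, 317.5, 336.3 and 305.9 at the base. The 3 turns overlapped on this probe, and the log2 difference between apex and base was -0.08 (SE 0.138, limma adjusted p = 0.727). Set against the mean of the other 5 probes of the gene on the same array, probe 3 departed by -1.68 log2 units between apex and base (SE 0.225, adjusted p = 0.00207). Among all probes of genes with 3 or more probes, 10.4% departed in this way. In the members 3 of 43 did, all in Dfnb59: probe 3, and probes 2 and 4, whose departures of 0.51 and 0.41 are measured against a mean that includes probe 3. With apical replicate 3 or with basal replicate 1, 2 or 3 left out, the count fell to 1, and probe 3 passed each time (adjusted p between 0.00142 and 0.00928 over the 12 arrays left out singly).

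Probe 5 differed by 2.93-fold between apex and base (345.5 ± 36.3 and 119.3 ± 24.1, SD, n = 4) and probe 6 by 2.81-fold (539.3 ± 63.2 and 195.3 ± 43.9). Probe 1, nearest the 5′ end, was well above background on 4 apical, 2 middle and 0 basal arrays. Its apical signal was at least 2.45-fold above the base, where the dim side is set per array to the lowest signal of any probe well above background unless the probe read higher. With probe 3 left out of the gene average, an alternative chosen after seeing the data, Dfnb59 was 3.03-fold higher at the apex than at the base (195 ± 9.08 against 66.57 ± 18.3, adjusted p = 7.44e-05) and 2.80-fold higher in the middle turn (adjusted p = 0.000431).

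**Figure D2:**
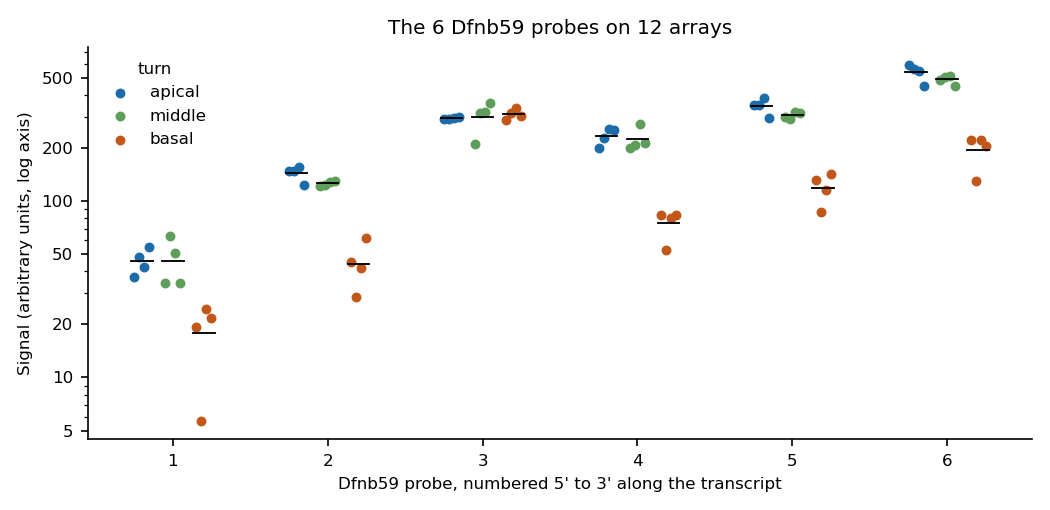
Signal of the 6 Dfnb59 probes on each of the 12 arrays (points, arbitrary units, log axis), with probes numbered along the transcript from the 5′ end, colors for the turns and a black bar at the mean of the 4 arrays. On probes 2, 4, 5 and 6 the basal points sit below all apical and middle points, while on probe 3 the 3 turns overlap between 210.3 and 360.9.

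Dfna5, the gene of gasdermin E, was modestly higher at the apex and the middle turn than at the base, although the sign for the apex turned with scaling to the spike-in probes. Its signal was 67.5, 64.23, 77.99 and 79.27 at the apex, 80.34, 68.86, 78.11 and 65.83 at the middle turn and 52.67, 54.07, 63.57 and 58.98 at the base. No basal array reached any apical or middle array, although the highest basal and the lowest apical value lay close together. The order was middle (73.28 ± 7.03, SD, n = 4), apex (72.25 ± 7.51) and base (57.32 ± 4.97), and middle and apex differed by less than their spread (limma adjusted p = 0.905). The apex was 1.26-fold above the base (log2 difference 0.33, SE 0.0949, adjusted p = 0.0162), and the middle turn was 1.28-fold above the base (log2 difference 0.35, adjusted p = 0.0224). The call between apex and base was lost with quantile normalization, scaling to the median, normexp correction and the median of the probes, and with scaling to the spike-in probes the log2 difference was -0.16 (adjusted p = 0.339). The call between middle turn and base was lost with scaling to the spike-in probes (log2 difference 0.08, adjusted p = 0.678), quantile normalization (adjusted p = 0.0856) and the median of the probes (adjusted p = 0.0894), and without middle replicate 1 (adjusted p = 0.0689), without basal replicate 1 (adjusted p = 0.0603) and without basal replicate 2 (adjusted p = 0.0671).

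The 9 Dfna5 probes lie within chr6:50157436-50201413 (mm9, minus strand), and 7 were well above background on all 12 arrays. The differences of all 9 probes between apex and base ran from -0.03 to 0.63 log2 units, and 8 of the 9 were above 0. Probe 3 (0.63) and probe 1 (0.52) gave the largest, and neither was well above background throughout any turn. The other 7 reached at most 0.39. With only the probes well above background, Dfna5 differed by 0.26 log2 units between apex and base (limma adjusted p = 0.0337). Between middle turn and base it then differed by 0.39 (adjusted p = 0.00951). Single probes rarely passed alone. Probe 7 read 92.35, 108.9, 99.09 and 120.1 at the apex, 124.4, 120.4, 100.2 and 123.4 at the middle turn and 82.49, 73.33, 93.02 and 81.07 at the base. It was 1.27-fold higher at the apex (limma adjusted p = 0.0265) and 1.42-fold higher in the middle turn (adjusted p = 0.0124) than at the base. Probe 8 was higher in the middle turn than at the base, by 1.48-fold (106.4 ± 4.88 against 72.84 ± 13.1, adjusted p = 0.0156). On probe 5 the apex (60.45 ± 7.9) and the base (61.86 ± 9.82) differed by less than their spread (adjusted p = 0.892).

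Gsdmd, the gene of gasdermin D, varied more between the arrays of a turn than between turns. Its signal was 153.1, 172.5, 184.2 and 195.8 at the apex, 158.9, 170.6, 201.1 and 241.5 at the middle turn and 160.3, 211, 206.8 and 241.8 at the base. All 3 turns overlapped. The order was base (205 ± 33.6, SD, n = 4), middle (193 ± 36.9) and apex (176.4 ± 18.2), and no neighbours in it differed beyond their spread. The base was 1.15-fold above the apex (log2 difference between apex and base -0.21, SE 0.15, limma adjusted p = 0.326), a difference that passed only with scaling to the spike-in probes (adjusted p = 0.00304) and with the sample number as a block (adjusted p = 0.0379).

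All 9 Gsdmd probes (chr15:75693976-75697595, mm9, plus strand) were well above background on all 12 arrays. All 9 read lower at the apex than at the base, by log2 differences between -0.41 and -0.08, and 1 of them passed. This was probe 2, with 59.04, 66.7, 74.06 and 64.37 at the apex, 68.13, 75.21, 71.45 and 72.34 at the middle turn and 73.1, 87.79, 86.5 and 106.5 at the base. It was 1.33-fold higher at the base than at the apex (limma adjusted p = 0.0126), and the highest apical array lay just above the lowest basal one. Probe 1 read 456.6 on middle replicate 4 and between 59.13 and 86.95 on the other 3 middle arrays.

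Gsdma and Gsdmc, the gasdermin genes of skin and other epithelia, were near background over most of their length. Of the 9 Gsdma probes 2 were well above background on all 12 arrays and 4 on none. Of the 10 Gsdmc probes 2 were well above background on all 12 arrays and 7 on none. The average over all probes of these genes therefore holds mostly values close to background. Gsdma read 23.32, 17.42, 20.11 and 16.18 at the apex, 21.17, 20.78, 20.6 and 21.29 at the middle turn and 22.76, 22.59, 18.48 and 23.93 at the base. The turns overlapped, the order was base, middle and apex, and the base was 1.15-fold above the apex (limma adjusted p = 0.2). That difference passed without apical replicate 1 (log2 difference -0.29, adjusted p = 0.0392), and it also passed with quantile normalization, scaling to the median and scaling to the spike-in probes.

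Gsdmc read 16.56, 13.43, 14.03 and 14.56 at the apex, 15.98, 18.05, 15.12 and 17.39 at the middle turn and 14.78, 14.63, 15.82 and 15.44 at the base. The turns overlapped here too. The order was middle, base and apex, with 1.14-fold between middle turn and apex (limma adjusted p = 0.125) and 1.04-fold between base and apex (adjusted p = 0.641). Both passed with scaling to the spike-in probes (adjusted p = 0.00624 and 0.000157).

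The probes of Gsdma and Gsdmc that were well above background were examined alone. Gsdma probe 8 read 140.9 ± 19.6 at the apex, 124.1 ± 32.7 at the middle turn and 139.6 ± 17.7 at the base (SD, n = 4), and probe 9 read 101.4 ± 30.7, 135.4 ± 21.2 and 134.9 ± 18. Neither passed in limma (adjusted p = 0.967 and 0.128 between apex and base). Gsdmc probe 9 read 670.5 ± 22.6, 701.1 ± 69.7 and 657.9 ± 41.9, and probe 10 read 110.2 ± 9.42, 95.74 ± 16.7 and 121.7 ± 23.2. Neither of these passed (adjusted p = 0.815 and 0.603). With only the probes well above background, the differences between apex and base were -0.22 log2 units for Gsdma (adjusted p = 0.22) and -0.05 for Gsdmc (adjusted p = 0.747). The middle turn of Gsdmc, highest in the average over all probes, was then the lowest. Its difference was 0.08 between apex and middle turn (adjusted p = 0.679) and -0.13 between middle turn and base (adjusted p = 0.435).

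Among the probes of the family, some of Gsdma and Gsdmc resemble probes of paralogs. RNA of a paralog may bind to these, and their signals are uncertain as to the gene. Gsdma probes 8 and 9, which were well above background, shared runs of only 7 and 8 bases with probes of other gasdermin genes. Only probes were compared with each other, not whole transcripts. A run of 20 or more bases was shared with a probe of another gasdermin gene by 5 of the 10 Gsdmc probes and 1 of the 9 Gsdma probes, and by none of the Dfnb59, Dfna5 and Gsdmd probes, whose longest shared runs were 9, 11 and 11 bases. The pair that concerns a probe well above background and the pair with the longest run are shown, with the shared run in capitals:
Gsdmc probe 9, chr15:63609003-63609062, minus strand: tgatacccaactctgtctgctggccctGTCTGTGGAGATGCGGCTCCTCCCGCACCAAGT
Gsdmc3 probe 3, chr15:63690652-63690711, minus strand: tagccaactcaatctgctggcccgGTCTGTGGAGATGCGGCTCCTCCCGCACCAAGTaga
Gsdma probe 4, chr11:98532108-98532167, plus strand: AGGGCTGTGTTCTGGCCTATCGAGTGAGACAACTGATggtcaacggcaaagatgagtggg
Gsdma2 probe 4, chr11:98513325-98513384, plus strand: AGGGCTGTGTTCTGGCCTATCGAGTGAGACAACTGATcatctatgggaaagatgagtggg
The Gsdmc and Gsdmc3 probes share 33 bases in a row, and the array design lists 2 transcripts for the former. The Gsdma and Gsdma2 probes share 37 bases and were both well above background on none of the arrays. Gsdmc3 probe 3 read 209.3 ± 27.1 at the apex, 234.9 ± 12.4 at the middle turn and 221.5 ± 26.5 at the base, with overlapping turns as for Gsdmc probe 9.

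Taking the 43 probes together, 6 were higher at the apex than at the base, against 18% of all probes, and 1 was higher at the base, against 16.4%. Between the middle turn and the base 7 were higher in the middle turn, against 7.76%, and 0 at the base, against 6.02%. Between the apex and the middle turn limma called 0, with 4 at an unadjusted p under 0.05, while 3.04% of all probes were higher at the apex and 2.86% were higher in the middle turn. The probes that were higher at the apex belonged to Dfnb59 (5) and Dfna5 (1), and those higher in the middle turn than at the base to Dfnb59 (5) and Dfna5 (2).

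**Figure D3:**
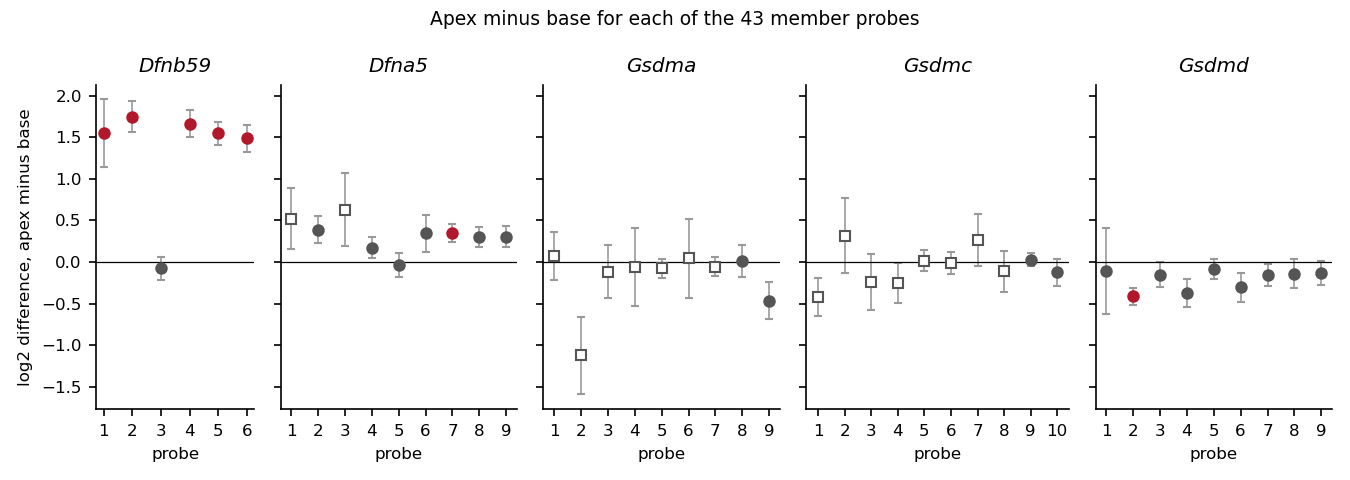
Log2 difference between apex and base for each member probe, numbered from the 5′ end, with the SE from limma. Filled circles are probes that were well above background throughout at least 1 turn, open squares the others, and red marks an adjusted p under 0.05. Of the Dfnb59 probes 5 lie between 1.49 and 1.75 and probe 3 lies at -0.08, while Gsdmd probes lie between -0.41 and -0.08.

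Of the other gasdermin genes looked for, 5 were on the array (Gsdma2, Gsdma3, Gsdmc2, Gsdmc3 and Gsdmc4), and none of them passed in any of the 3 comparisons in limma, with 0 at an unadjusted p under 0.05. Gsdmc2 and Gsdmc4 lacked a probe that was well above background throughout any turn. Of the 25 probes of these 5 genes, 2 were higher at the apex than at the base, against 18% of all probes. Another 2 were higher at the base, against 16.4%. Those higher at the apex (Gsdmc2 probe 2 and Gsdmc3 probe 1) were well above background on 0 and 1 of the 12 arrays. Those higher at the base were well above background on all 12, namely Gsdma3 probe 4 (1.23-fold, limma adjusted p = 0.0127) and Gsdma2 probe 1. Gsdma2 probe 1 read 659.9, 578.9, 589.9 and 634.1 at the apex, 705, 710.4, 660.2 and 685 at the middle turn and 906.6, 947.5, 827.8 and 882.1 at the base. All basal arrays lay above all others on this probe, a 1.45-fold difference from the apex (limma adjusted p = 0.000186). The rest of the gene did not share it, and probe 1 departed from the mean of the other Gsdma2 probes by -0.52 log2 units (adjusted p = 0.00719). Gsdma2 probes 2, 3, 4, 6 and 7 were well above background on 0 arrays, and probe 5 did not pass between apex and base (adjusted p = 0.856).

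None of the 7 proteases that can cut gasdermins was higher at the apex than at the base, against 17.6% of all genes. At the base 1 was higher, against 21.6%. This was Casp8, an initiator caspase that can cut gasdermins C and D, with a 1.37-fold difference (418.5 ± 30.9 against 306.1 ± 25.2, SD, n = 4, limma adjusted p = 0.00265). The inflammatory caspases that cut gasdermin D did not pass. Casp1 read 25.3 ± 6.97 at the apex and 31.19 ± 1.8 at the base (limma adjusted p = 0.09), and Casp4, the gene of mouse caspase-11, read 41.52 ± 9.81 and 38.5 ± 6.35 (adjusted p = 0.699). The granzymes of killer cells did not pass either (Gzma adjusted p = 0.996, Gzmb adjusted p = 0.552). The neutrophil proteases Elane and Ctsg stood out on a single array. Elane read 338.9 on apical replicate 4 and between 79.43 and 88.17 on the other apical arrays, and Ctsg read 169 there and between 19.19 and 28.04 on the others. The summed list of 10 neutrophil and marrow markers was also highest on that array (61230, against 14550 to 24650 on the other apical arrays). Gsdmd read 195.8 there, its highest apical value. Gsdmd was highest on replicate 4 of the middle turn (241.5) and of the base (241.8) as well. The marrow sums on those 2 arrays, 25890 and 13560, lay inside the range of the other arrays of their turn. The middle value of Gsdmd rests in part on probe 1, which read 456.6 there against 59.13 to 86.95 on the other middle arrays. On probes 3, 4, 6 and 8 middle replicate 3 read higher than replicate 4, and on probes 2, 5, 7 and 9 it read lower. The part of marrow cells in these values was not tested.

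Of the 13 inflammasome genes, whose products activate the inflammatory caspases, 3 were higher at the apex and none was higher at the base, with a median difference of 0.05 log2 units (all genes -0.04), beside 17.6% of all genes that were higher at the apex and 21.6% at the base. These were the bacterial sensors Naip2 (1.66-fold, limma adjusted p = 0.00402) and Naip6 (1.60-fold, adjusted p = 0.00104) and the DNA sensor Aim2 (1.47-fold, adjusted p = 0.0477), all of them dim, with means between 10.51 and 37.58. Of the 8 genes for released cytokines, membrane rupture and transcription of the pathway, 2 were higher at the base. Ninj1, whose protein ruptures the membrane at the end of lytic death, read 2227 ± 206 at the apex, 2828 ± 279 at the middle turn and 3757 ± 339 at the base, 1.69-fold higher at the base than at the apex (adjusted p = 0.000117). Il1b, a cytokine let out through gasdermin D pores, was 1.39-fold higher at the base (43.12 ± 7.3 against 30.86 ± 3.39, adjusted p = 0.048).

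Of the 8 genes of mitochondrial apoptosis, 1 was higher at the apex and 3 were higher at the base, with a median of -0.15, beside the same 17.6% and 21.6% of all genes. Apaf1, the scaffold of the apoptosome, was 1.58-fold higher at the apex (limma adjusted p = 0.000439). The pore former Bax was 1.39-fold higher at the base (adjusted p = 0.000237), cytochrome c (Cycs) 1.36-fold (adjusted p = 0.00329) and the inhibitor antagonist Diablo 1.14-fold (adjusted p = 0.0433). Of the 14 ESCRT genes, whose proteins pinch off membrane wounded by gasdermin pores, 7 were higher at the base and 1 was higher at the apex (median -0.16). The ESCRT genes with the largest difference were Chmp1b (1.54-fold higher at the base), Pdcd6 (1.31-fold), Chmp5 (1.31-fold) and Chmp6 (1.28-fold), with adjusted p between 0.000247 and 0.00104.

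Of the 21 peroxisome genes, 9 were higher at the base and 1 was higher at the apex, with a median difference of -0.18 log2 units. Catalase (Cat), which breaks down hydrogen peroxide, read 634.5, 622.8, 610.8 and 685.7 at the apex, 672, 706.4, 675 and 703.9 at the middle turn and 885.5, 880.9, 907.1 and 859.8 at the base. All basal arrays lay above all others, a 1.38-fold difference from the apex (limma adjusted p = 3.17e-05). The membrane biogenesis factor Pex3 (1.25-fold, adjusted p = 0.000598) and the membrane protein gene Pxmp4 (1.24-fold, adjusted p = 0.00707) were also higher at the base. The fatty acid transporter gene Abcd2 was 1.86-fold higher at the apex (85.28 ± 11.3 against 48.09 ± 19.8, adjusted p = 0.0136). Of the 7 genes of pexophagy, the removal of peroxisomes by autophagy, 5 were higher at the base (median -0.28), led by Gabarap (1.34-fold, adjusted p = 0.000358), Gabarapl2 (1.29-fold, adjusted p = 0.00018), Map1lc3a (1.25-fold, adjusted p = 0.00323) and the cargo receptor gene Sqstm1 (1.21-fold, adjusted p = 0.00565). Dfnb59 thus ran in the other direction to most peroxisome and pexophagy genes that passed. The counts for the ESCRT, peroxisome and pexophagy genes stand beside the same shares of all genes.

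**Figure D4:**
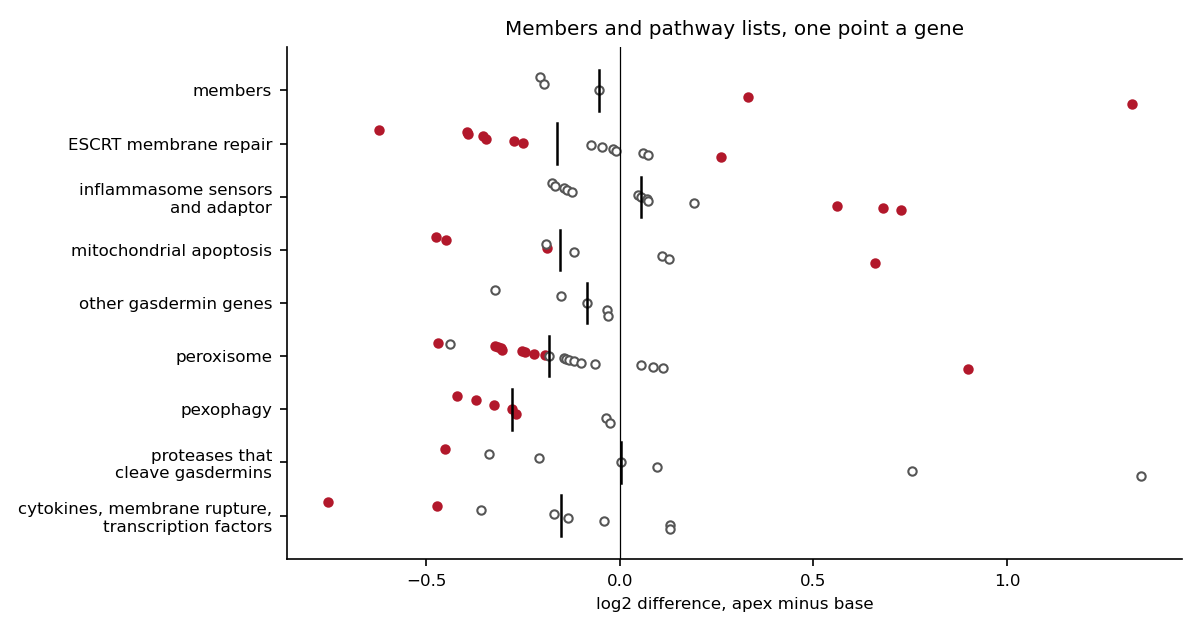
Log2 difference between apex and base of the members and of the genes of each pathway list, 1 point a gene, red where limma's adjusted p was under 0.05, with a black bar at the median of each list. Dfnb59 lies farthest to the right among the members at 1.32, and the medians of the ESCRT, peroxisome and pexophagy lists lie at -0.16, -0.18 and -0.28.

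Markers of several cochlear cell types moved with Dfnb59. Over all genes 17.6% were higher at the apex and 21.6% at the base, and the marker counts are to be read against these shares. Of 12 hair cell markers 11 were higher at the apex than at the base (median log2 difference 1.36), among them the outer hair cell motor Slc26a5 (7.65-fold, limma adjusted p = 1.76e-06) and the calcium binding protein gene Ocm (3.78-fold, adjusted p = 1.28e-05). Their summed signal ran from 24690 to 28450 on the apical arrays, from 20560 to 26650 on the middle arrays and from 7072 to 15190 on the basal arrays. Of 11 spiral ganglion neuron markers 8 were higher at the apex and 1 was higher at the base (median 1.47), with sums of 27340 to 35520, 24600 to 43360 and 5477 to 22790. All 6 Schwann cell markers on the array were higher at the apex (median 0.73), with sums of 13050 to 14710, 13930 to 16760 and 6488 to 12460. Basal replicate 2, the array with the lowest Dfnb59 signal, also had the lowest sum of all 3 lists. Basal replicate 3 had the highest basal sum of the neuron and Schwann cell lists, at 22790 and 12460, while its Dfnb59 signal of 94.29 lay inside the range of the other basal arrays. It also had the highest basal sum of the hair cell list, but Pvalb alone made up 8471 of its 15190. Without Pvalb, an alternative chosen after seeing the data, the hair cell sums were 6311, 4979, 6718 and 7388 on basal replicates 1 to 4. This is the order of Dfnb59 on these basal arrays, but the orders differed on the apical and on the middle arrays. The sums without Pvalb also ran from 15510 to 19820 at the apex and from 11880 to 13820 in the middle turn. These turns did not overlap for the sums, whereas they did for Dfnb59. In bulk tissue fewer cells of a type and less RNA per cell cannot be told apart. The part of hair cells, neurons and Schwann cells in the Dfnb59 difference was not tested.

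Of 9 supporting cell markers 6 were higher at the apex and 2 at the base (median 0.99), where the 2 higher at the base were the abundant connexin genes Gjb2 and Gjb6. The other marker lists mostly ran the opposite way or had few members that passed. Of 8 strial markers 7 were higher at the base, and of 6 spiral ligament fibrocyte markers 5 were. Of 9 macrophage markers 6 were higher at the base (median -0.33), where their sum ran from 1779 to 2163, against 1275 to 1722 at the apex. Of 8 keratinocyte markers 2 were higher at the apex. Among 7 markers of T and NK cells none passed between apex and base in limma, and 1 had an unadjusted p under 0.05. Of 7 bone markers 1 was higher at the apex and 1 at the base. Their sum ran from 9384 to 11010 at the base, against 3005 to 5050 on apical replicates 1 to 3 and 16260 on apical replicate 4. Of the 10 neutrophil and marrow markers 1 was higher at the apex (median 1.55), and their sum ran from 14550 to 61230 at the apex and from 12780 to 31150 at the base. The part of supporting cells, bone and marrow in the members' differences was not tested either.

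**Figure D5:**
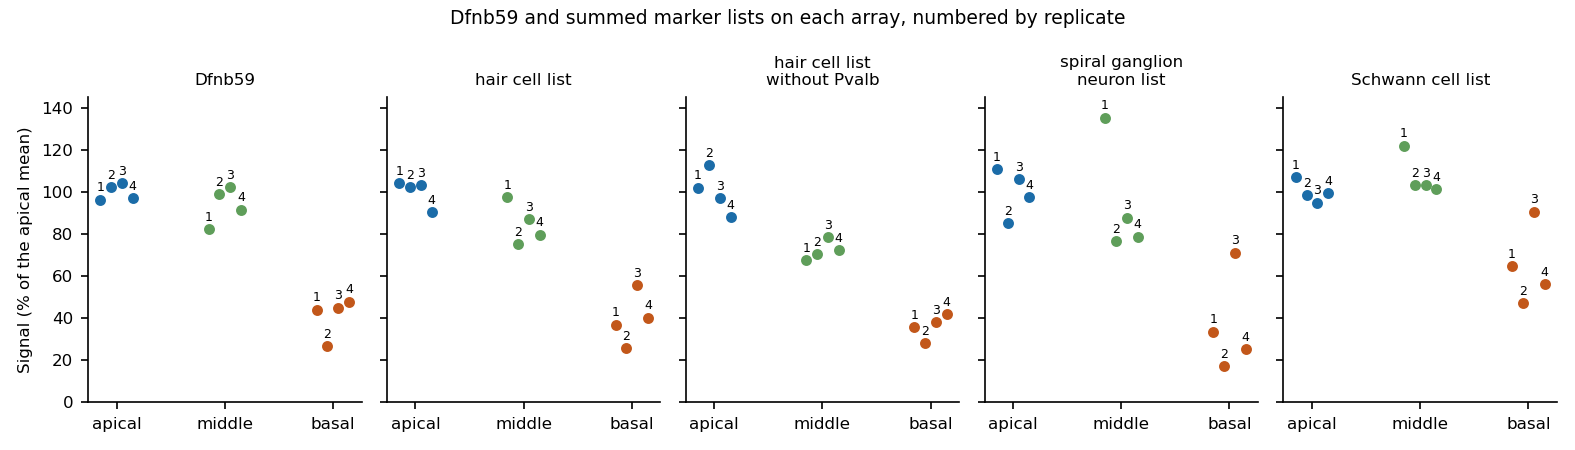
Signal of Dfnb59 and summed signal of the hair cell (with and without Pvalb), spiral ganglion neuron and Schwann cell marker lists on each array, as a percentage of the apical mean, with points numbered by replicate. Basal replicate 2 is the lowest point in each panel, and basal replicate 3 is the highest basal point of the neuron and Schwann cell lists, and of the hair cell list with Pvalb. Basal replicate 4 is the highest basal point for Dfnb59 and for the hair cell list without Pvalb.

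The genes next to the members moved in both directions. Within 50 kb of the Dfnb59 probes, Prkra, an activator of the kinase PKR, differed little between apex and base (526.9 ± 25.1 and 503.7 ± 35, limma adjusted p = 0.521). Fkbp7 was 1.27-fold (adjusted p = 0.00449), Osbpl6 1.61-fold (adjusted p = 6.03e-06) and Plekha3 1.15-fold (adjusted p = 0.0122) higher at the base, the direction opposite to Dfnb59. Ttn, the titin gene, was 1.53-fold higher at the apex (adjusted p = 0.00724), with no more than 27 of its 188 probes well above background in a turn. Near Dfna5, Osbpl3 was 2.17-fold higher at the apex (262.7 ± 18.5 against 123.2 ± 28.3, adjusted p = 0.000171) and Mpp6 did not pass (adjusted p = 0.418). Near Gsdma, Psmd3 and Med24 were 1.10-fold higher at the base (adjusted p = 0.0423 and 0.0473) and Csf3 did not pass (adjusted p = 0.449). Near Gsdmd, Naprt1 (1.28-fold, adjusted p = 0.0232), Eef1d (1.39-fold, adjusted p = 0.000334) and Pycrl (1.24-fold, adjusted p = 0.00107) were higher at the base, Zc3h3 was 1.11-fold higher at the apex (adjusted p = 0.0475), and Tigd5 did not pass (adjusted p = 0.266). The genes near Gsdmc were its paralogs Gsdmc2 and Gsdmc3.

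The genes most like each member across the 12 arrays were found by Pearson's r of log2 signal, over 16015 genes that had at least 1 probe well above background on every array. The arrays of a turn share that turn and may share a slide, so these values describe the pattern only. For Dfnb59 they were Pcp4 (r = 0.979), Tomt (0.976) and Cd164l2 (0.974), which were 2.98-fold, 2.68-fold and 2.22-fold higher at the apex than at the base. Tomt is itself a deafness gene, needed for mechanotransduction in hair cells. For Dfna5 they were Ccne1 (0.945), Ica1 (0.934) and Gm5151 (0.933). For Gsdmd they were Acy3 (0.968), 2610002J02Rik (0.939) and Ift46 (0.937). Gsdma was most like Slc5a1 (0.864), Prss29 (0.859) and Tmem136 (0.854), and Gsdmc most like Fshr (0.906), Krt82 (0.897) and 1700012B09Rik (0.896), where both members rest mostly on probes near background. Among the members themselves, r was 0.789 between Dfnb59 and Dfna5 and between -0.464 and 0.377 for all other pairs.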

How the data were processed

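Total RNA from 4 samples of each cochlear turn was hybridized to 12 single-color exon arrays. The authors made the deposited fluorescence intensities with Agilent Feature Extraction 10.7.3.1, which subtracted a fitted background and removed a spatial trend, with no normalization between arrays. Probe positions in the files are on mm9. The deposited value table held the same intensities as the processed signal of the scanner files.

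Of 180880 spots per array, 7914 controls and 622 spots that carried a flag for unevenness, deviation or manual exclusion on at least 1 array were dropped from every array, which left 165865 probes of 19505 genes. Each array was scaled to a 75th percentile of 641.3 (between 534.6 and 722.1 before scaling), log2 values were averaged over the spots of a probe and the probes of a gene, and no low values were filtered or floored. A probe counted as well above background by the scanner software's own call. Turns were compared with limma 3.58.1 (lmFit and eBayes) in R 4.3.3, read in with data.table (version 1.17.8), on genes, on probes, and on each probe relative to the average of the remaining probes in genes with 3 or more probes, at an adjusted p under 0.05. These fits were tested on simulated data. The number of arrays limits the precision.

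The members and gene lists were chosen with earlier results of these data known. Named were all members, at most 4 genes of each pathway list with the largest difference among those that passed (all proteases but those not reported here), the 3 genes most like each member and all genes within 50 kb. Alternatives were other scalings (quantile, median, spike-in), normexp with an offset of 50, 16 added to each signal, other ways to combine probes, flagged spots kept, other forms of the test, the sample number as a block and each array left out. Probe sequences are those of the deposited files, and current gene names are from RefSeq (GRCm38.p6), where all 5 members matched. The labels do not say whether equal sample numbers mark 1 mouse.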

Additional observations from a re-analysis of the deposited data

Results flagged for a closer look

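In 1 of the 15 groups of 4 gene-level values, and in 19 of the 129 groups of 4 probe values, the most distant array stood so far off that the share of the group's range taken up by its gap to the next array was above Dixon's critical value. Chance gives about 1 in 20 such groups. For Dfnb59 on the basal arrays the share was 0.86, since basal replicate 2 read 56 and the others between 92.29 and 100.1. The same array was low at the base on Dfnb59 probe 1 (0.842), probe 4 (0.91, 52.94 against 80.45 to 83.86) and probe 6 (0.87, 130.2 against 207.1 to 222), and it had the lowest hair cell, spiral ganglion neuron and Schwann cell marker sums.

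In Dfna5, apical replicate 1 was low on probe 3 (0.834) and probe 5 (0.963, 48.61 against 63.95 to 64.62), and middle replicate 3 was low on probe 7 (0.848, 100.2 against 120.4 to 124.4). In Gsdmd, basal replicate 1 was low on probe 1 (0.887, 51.19 against 86.02 to 91.89).

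In Gsdma and Gsdmc most such groups lay on probes near background. On the middle arrays replicate 1 was low on Gsdma probe 1 (0.909), and replicate 3 was high on Gsdma probe 4 (0.852) and Gsdmc probe 7 (0.95) and low on Gsdma probe 7 (0.876) and on Gsdmc probes 1 (0.846), 3 (0.876), 5 (0.855) and 6 (0.856). At the apex replicate 1 was high on Gsdmc probe 3 (0.95) and replicate 3 on Gsdmc probe 7 (0.902). On probes well above background, basal replicate 3 was low on Gsdmc probe 9 (0.885, 595.5 against 671.8 to 682.4) and probe 10 (0.84, 87.5 against 128.6 to 138.4).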

How the results depend on the processing

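Dfnb59 stayed higher at the apex and in the middle turn than at the base under every alternative run (apex log2 difference 0.77 to 1.60, adjusted p at most 0.000997; middle turn 0.74 to 1.48, adjusted p at most 0.00616), and with each array left out (1.13 to 1.41 and 1.03 to 1.31). Scaling to the median and to the spike-in probes moved the median of all genes between apex and base to -0.15 and -0.52 log2 units. Relative to the median of all genes, Dfnb59 was at 1.36 and Dfna5 at 0.37, at 1.24 and 0.2 with quantile normalization and at 0.8 and 0.16 with normexp (median and spike-in scaling cannot change these values). The count of members changed between apex and base, 2, was 4 with spike-in scaling, 1 with normexp and 1 with the median of the probes, and ran from 2 to 3 with an array left out. The 4 with spike-in scaling were Dfnb59, higher at the apex, and Gsdma, Gsdmc and Gsdmd, higher at the base. It stayed 2 with quantile normalization and with median scaling, but Dfna5 was lost (adjusted p = 0.287 and 0.0817). Gsdma, higher at the base, was gained there (-0.36, adjusted p = 0.016, and -0.31, adjusted p = 0.0401). Between middle turn and base, 2 became 1 with quantile normalization and with the median of the probes, and stayed 2 with spike-in scaling, where Dfna5 was lost (0.08, adjusted p = 0.678) and Gsdma, higher at the base, was gained (-0.33, adjusted p = 0.0483). It ran from 1 to 2 with an array left out. Between apex and middle turn, 0 became 2 with spike-in scaling and stayed 0 with each array left out. The count of 2-fold members, 1, was 0 with spike-in scaling and 0 with normexp.

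Of the member probes, 7 changed between apex and base, and 25 did with spike-in scaling (6 to 9 with an array left out). Between apex and middle turn, 0 became 7 with spike-in scaling (0 to 5 with an array left out, 5 without middle replicate 3). Between middle turn and base 7 became 11 without middle replicate 3 (6 to 11). The 3 probes that departed from their gene became 7 with normexp and 5 with 16 added to each signal, and 1 to 3 with an array left out. The causes of these moves were not tested.

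Signs turned with spike-in scaling for Dfna5 between apex and base (-0.16), Dfnb59 between apex and middle turn (-0.12) and Gsdmc between middle turn and base (-0.14). The last also turned with quantile normalization (-0.0658) and with only probes well above background (-0.13), Gsdmc between apex and base with the mean linear signal (0.0072) and between apex and middle turn with only probes well above background (0.0781), and Gsdmd between apex and middle turn with the median of the probes (0.0159). Dfna5 between apex and middle turn turned without apical replicate 1 (0.0093), apical replicate 2 (0.0331), middle replicate 1 (0.02) and middle replicate 3 (0.01). Its range with an array left out was -0.0714 to 0.0331. None of these passed the test.

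The sample number as a replicate block raised the count of members changed between apex and base to 3, with Gsdmd, and lowered the departed probes to 1. Same-numbered arrays deviated from their turn means with r between -0.04 and 0.23 over genes (6 of 12 pairs over 0.1, against 2 of 36 pairs of unequal number), and 8 of 12 arrays were most like their own number, a hint from the data that equal numbers may mark 1 mouse. The sources do not state it and not every pair was over 0.1, so the block was not used for the values reported. The deposited value table gave the same values. For dim probes, mainly of Gsdma and Gsdmc, the signal over background limits what could be detected.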
